A study of Mus musculus with 338 samples.

Results

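Antioxidant enzyme genes, 10 of the 21382 genes in the count table, were followed in mouse pancreatic islets: the glutathione peroxidases Gpx1, Gpx2, Gpx3 and Gpx4, catalase (Cat), the superoxide dismutases Sod1 and Sod2, peroxiredoxin 4 (Prdx4), thioredoxin reductase 1 (Txnrd1) and the quinone reductase Nqo1. They were chosen by symbol, and all 10 passed the filter on low counts. RNA was sequenced from islets of 338 mice, 1 library per mouse, of 6 inbred strains (129S2/SvPas, AKR/J, A/J, DBA/2J, C57Bl/6J and BALB/cJ). They ate either food high in fat and sugar (HFHS, 172 mice) or regular chow (RC, 166 mice) and were sampled at day 2, 10, 30 or 90, which gave 48 groups of 4 to 11 mice. The labels name no transgene or drug, and the ages and sexes of the mice are not given in the sources used here. Each library was made from at least 150 selected islets per mouse, so fewer cells of a type and less RNA per cell cannot be told apart.

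Superoxide dismutases turn superoxide into hydrogen peroxide, Sod1 mainly in the cytosol and Sod2 in mitochondria. Catalase in peroxisomes, glutathione peroxidases and peroxiredoxins then reduce the peroxide, and thioredoxin reductase and glutathione supply the electrons. Beta cells are known for low levels of catalase and of glutathione peroxidase activity compared with liver, and the transcription factor NRF2 (gene Nfe2l2), held back by KEAP1, drives many genes of this defence, Nqo1 among the best known.

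The sequences before the transcription start are shown for 4 members, because NRF2 is known to bind a short element in the promoters of its targets and Gpx2 and Nqo1 are described most. All 10 members matched RefSeq promoter windows (15 windows, build GRCm38.p6). The 150 bases before the start are printed from 5′ to 3′ on the gene's strand, with capitals for the letters TGACNNNGC, a core form of the NRF2-bound element, or TATAAA, the TATA box, on either strand. These coordinates are not those of the build used for the counts.
Gpx2, chr12:76795555-76795704, minus strand: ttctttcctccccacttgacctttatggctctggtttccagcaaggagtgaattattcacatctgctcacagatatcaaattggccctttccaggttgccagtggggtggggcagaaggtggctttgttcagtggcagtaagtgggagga
Nqo1, chr8:107403206-107403355, minus strand: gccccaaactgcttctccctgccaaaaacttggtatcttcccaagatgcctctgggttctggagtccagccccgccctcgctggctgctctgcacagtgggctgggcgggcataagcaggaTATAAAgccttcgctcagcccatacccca
Sod1, chr16:90220612-90220761, plus strand: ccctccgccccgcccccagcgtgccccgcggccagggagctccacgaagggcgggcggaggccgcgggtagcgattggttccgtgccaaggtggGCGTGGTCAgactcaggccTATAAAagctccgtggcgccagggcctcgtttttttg
Txnrd1, chr10:82859056-82859205, plus strand: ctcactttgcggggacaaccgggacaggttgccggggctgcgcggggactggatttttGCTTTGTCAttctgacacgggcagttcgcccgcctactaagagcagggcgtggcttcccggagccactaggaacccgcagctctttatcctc

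The letters TGACNNNGC stood in the printed window of Sod1 and in 1 of 3 windows of Txnrd1, both on the opposite strand, and TATAAA stood in those of Sod1 and Nqo1. No other window of the 15 held either motif within these bases. Among 32851 RefSeq promoter windows, 6.80 percent held TGACNNNGC within the same 150 bases and 7.57 percent held TATAAA. The 2 motifs do not overlap in Sod1, and a match is a string of letters, not a measured binding site.

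Libraries held 9526926 to 50751894 reads assigned to genes (median 25989180). Islet markers were present throughout: the 10 beta cell markers summed to 46550 to 462338 CPM (read counts scaled to an equal library total), against 42.6 to 93756 CPM for 13 acinar cell markers. In 39 libraries the slope of log2 deviation on a gene's GC content was beyond 0.5 per 10 GC points, and 37 of these were low in GC-rich genes. They included 7 of 8 DBA/2J libraries on RC at day 90 and every one of 6 BALB/cJ libraries on HFHS at day 2, none of AKR/J, and were uneven between diets (11 on HFHS and 5 on RC at day 2, 5 and 9 at day 90). Across libraries, after group means were removed, log2 Gpx1 and log2 Gpx4 followed the GC slope with r of 0.95 and 0.94 Gpx2 with r of 0.69, Sod1 with 0.66 and Gpx3 with 0.56 (n = 338), while Cat, Sod2, Prdx4, Txnrd1 and Nqo1 lay between -0.19 and -0.07. Another 10-gene sum, of enterocyte genes chosen after the data were seen, passed 50 CPM in 48 libraries. By 38 strain-specific genes, 9 libraries, all among the 39, lay nearest a strain other than the labelled one. Results of the members that rest on the 39 libraries are therefore given also from the 299 libraries within the bound.

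The plasma peroxidase Gpx3 was the member with the highest level and catalase the lowest when counts were divided by transcript length. In the 299 libraries within the GC bound, Gpx3 stood at 403 CPM per kb, Sod1 at 129, Gpx1 at 75.3, Txnrd1 at 43.1 and Prdx4 at 29.1. Sod2 stood at 11.9 CPM per kb, Gpx4 at 10.5, Gpx2 at 9.02, Nqo1 at 8.77 and Cat at 5.57. Length was that of the longest coding transcript of each gene, 5.86 kb for Sod2, so this order depends on the choice of transcript. Gpx4 is the peroxidase that reduces oxidized membrane lipids, and it had the lowest single count, 1 read in a library. The median count per library was 267 reads for Gpx4 and 224 for Gpx2, the lowest of the 10. The reference annotation lists processed copies of Gpx2 and Gpx4 (Gpx2-ps1, Gpx4-ps1, Gpx4-ps2), so these 2 levels are uncertain if reads were shared with the copies.

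Members differed in how far they varied over the 48 groups. Gpx2, the glutathione peroxidase best known from the intestinal lining, had the widest range, from a mean of 2.37 CPM in A/J on RC at day 90 to 19.5 CPM in AKR/J on HFHS at day 2, an 8.20-fold ratio. The ratio of highest to lowest group mean was 6.40 for Gpx1, 6.29 for Nqo1, 4.90 for Gpx3, 4.15 for Gpx4 and 3.59 for Cat. It was 1.99 for Prdx4, 1.81 for Sod2, and 1.61 for both Txnrd1 and Sod1. Some of these extremes rest on libraries beyond the GC bound: the lowest group of Gpx1 and of Gpx4 was BALB/cJ on HFHS at day 2, and the highest of Nqo1 was DBA/2J on RC at day 90. Within the bound, over the 46 groups with 2 or more libraries left, the ratio was 8.20 for Gpx2, 5.36 for Gpx3, 4.75 for Nqo1, 4.03 for Cat, 2.14 for Gpx1, 2.04 for Gpx4, 1.91 for Prdx4, 1.80 for Sod1, 1.53 for Sod2 and 1.39 for Txnrd1. The plot of Gpx2 by group shows each mouse.

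**Figure D1:**
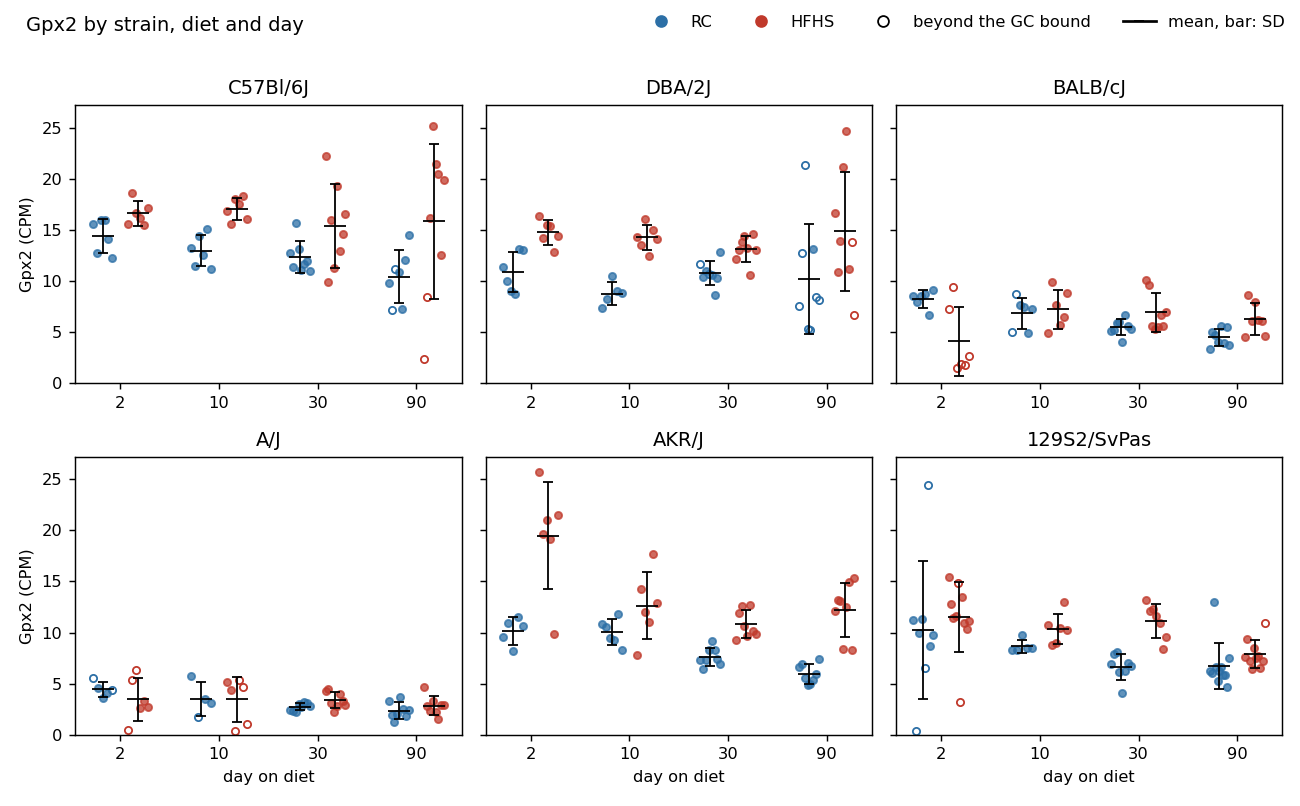
Gpx2 in CPM (vertical axis) by day on diet (horizontal axis) in the 6 strains. Each point is 1 mouse, red on HFHS and blue on RC, open where the library lay beyond the GC bound; bars are the mean and SD of the group. At day 90 in AKR/J the HFHS mice lie between 8.29 and 15.4 CPM, all above the RC mice at 4.85 to 7.42 CPM, while A/J mice at that day reach 4.67 CPM at most.

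The question of the diet comparison is which genes differ between HFHS and RC at each day. Tests were run across all 16498 genes kept, with edgeR's quasi-likelihood test, HFHS minus RC averaged over strains, and p-values adjusted by the Benjamini-Hochberg method over all of them. A gene passed at an adjusted p under 0.05. Fold changes rest on TMM-scaled counts, while CPM are not TMM-scaled.

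Gpx2 was higher on HFHS at the later days. At day 30 it rose by a log2 fold change of 0.46 (SE 0.10, adjusted p 0.000644), and at day 90 by 0.61 (SE 0.10, adjusted p 8.5e-07), which is 1.53-fold. All 6 strains were higher on HFHS at days 10, 30 and 90, and 4 of 6 at day 2. Over single strains the log2 difference ran from 0.02 to 0.78 at day 10, from 0.33 to 0.75 at day 30 and from 0.23 to 1.22 at day 90. Within the GC bound the averaged differences were 0.27 at day 2, where BALB/cJ has no HFHS library left and 5 strains were averaged (adjusted p 0.0152), 0.33 at day 10 (adjusted p 0.00356), 0.46 at day 30 and 0.54 at day 90 (adjusted p 3.8e-08). In all libraries the day 2 difference was 0.01 (adjusted p 0.974) and that of day 10 was 0.30 (adjusted p 0.286).

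By strain at day 90, the lowest, median and highest Gpx2 level in AKR/J was 8.29, 12.8 and 15.4 CPM on HFHS (n = 8) and 4.85, 5.73 and 7.42 CPM on RC (n = 8). The AKR/J groups did not overlap, and the log2 difference was 1.22 (SE 0.25, adjusted p 6.8e-05), a 2.33-fold rise. The share of all genes without overlap between these groups was not counted.
DBA/2J ran from 6.63 over 13.8 to 24.7 CPM on HFHS (n = 8) and from 5.18 over 8.25 to 21.3 CPM on RC (n = 8), with overlap. Its difference was 0.84 (adjusted p 0.0019) in all libraries and 0.42 (adjusted p 0.406) within the GC bound, where 1 RC library is left.
In C57Bl/6J the levels were 2.40, 18.04 and 25.1 CPM on HFHS (n = 8) against 7.19, 10.9 and 14.5 CPM on RC (n = 7). The difference of 0.59 did not pass (adjusted p 0.784). In that group 2 HFHS mice lay beyond the GC bound and nearest another strain, and within the bound HFHS mice ran from 12.5 to 25.1 CPM (n = 6) and RC mice from 7.30 to 14.5 CPM (n = 5), a difference of 0.76 (adjusted p 0.0138).
BALB/cJ mice had 4.53, 6.11 and 8.58 CPM on HFHS (n = 7) against 3.31, 4.39 and 5.64 CPM on RC (n = 8), a log2 difference of 0.50 (adjusted p 0.328; 0.49 with adjusted p 0.0177 within the bound). In A/J the medians were 2.87 and 2.20 CPM with ranges of 1.53 to 4.67 and 1.25 to 3.72 (n = 8 each, adjusted p 1). In 129S2/SvPas they were 7.53 (n = 10) and 6.25 CPM (n = 11), with ranges of 6.43 to 10.97 and 4.71 to 13.03 (adjusted p 0.902). The A/J and 129S2/SvPas groups overlapped over most of their range.

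At days 10 and 30 the diet groups of some strains did not overlap in Gpx2 CPM. These CPM are not TMM-scaled, and overlap after scaling was not checked at these days. Nor was the share of all genes without overlap counted. At day 10 C57Bl/6J mice ran from 15.5 to 18.4 CPM on HFHS (n = 6) and from 11.2 to 15.1 CPM on RC (n = 6), and DBA/2J mice from 12.5 to 16.03 CPM (n = 6) and from 7.32 to 10.5 CPM (n = 5). The groups of each of these 2 strains did not overlap, while those of AKR/J, with medians of 12.5 and 9.99 CPM, and of 129S2/SvPas, with 10.4 and 8.44 CPM, did. BALB/cJ (7.06 and 7.35 CPM) and A/J (4.50 and 3.29 CPM) overlapped over most of their range. At day 30 AKR/J mice ran from 9.32 to 12.7 CPM on HFHS and from 6.46 to 9.22 CPM on RC (n = 8 each), and 129S2/SvPas mice from 8.39 to 13.2 CPM (n = 7) and from 4.06 to 8.10 CPM (n = 8). Neither of these 2 strains overlapped between diets, and the other 4 did, with medians on HFHS and RC of 15.3 and 11.8 CPM in C57Bl/6J, 13.1 and 10.6 CPM in DBA/2J, 6.15 and 5.47 CPM in BALB/cJ, and 3.22 and 2.80 CPM in A/J. Gpx2 did not pass in any single strain at these days in the fit of all libraries.

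Whether the Gpx2 response differed between strains at day 90 depended on the setting. The strain by diet interaction had an adjusted p of 0.0746 in all libraries, 3.2e-05 within the GC bound, 0.0417 with a GC curve per library as an offset, 0.0404 with the mouse number as a block, and 0.0169 without the 9 libraries nearest another strain. It did not pass with DESeq2's size factors (adjusted p 0.0748), with no filter on low counts (0.1005), with only the libraries compared (0.141) or without mouse 6RC89 (0.0846). Nor did it pass without the 48 libraries over 50 CPM of enterocyte genes (0.177) or in limma on the authors' table (0.207). It passed in 4 of 99 fits with 1 mouse left out. Those fits kept the edgeR dispersions and the p threshold of the fit of all libraries, with no new adjustment. The background for this test was high: 50.3 percent of all genes passed it. The 4 members that passed were Gpx1, Gpx3, Prdx4 and Nqo1, with adjusted p of 0.000183, 0.0428, 0.00696 and 0.000471. The Gpx3 call was lost with the block (adjusted p 0.0632), with no filter on low counts (0.0561) and without mouse 6RC89 (0.0578). It was also lost in limma (0.164) and without the 48 libraries (0.0906), and it remained in 82 of the 99 fits. Within the bound it was 0.000475. The calls of Gpx1, Prdx4 and Nqo1 held in each of these settings and fits.

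At day 2 Gpx2 was called higher in AKR/J and lower in BALB/cJ, described below with its libraries beyond the GC bound. In AKR/J the 6 HFHS mice had 25.7, 19.7, 21.0, 19.1, 9.83 and 21.5 CPM and the 5 RC mice 9.52, 10.9, 8.16, 11.6 and 10.6 CPM. All HFHS mice but 1 lay above every RC mouse, and the log2 difference was 1.07 (SE 0.30, adjusted p 0.0119). Sod2 also rose there (0.23, adjusted p 0.0106), so 2 members were called, both higher, where 3.76 percent of all genes were higher and 3.14 percent lower. The Sod2 call was lost without the RC mouse numbered 3 (0.19) and with the GC offset (0.15, adjusted p 0.49). In these groups the stellate cell and fibroblast markers ran from 325 to 1416 CPM on HFHS and from 1076 to 1817 on RC, the endothelial markers from 588 to 836 and from 835 to 1133 CPM, and the beta cell markers from 254652 to 344022 and from 270367 to 311283 CPM, and their part in the result was not tested.

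Over the other members, the diet differences averaged over strains were small, as the plot of diet effects shows. At day 2 Gpx1, the ubiquitous cytosolic peroxidase, differed by -0.37 (SE 0.12, adjusted p 0.0101), lower in 2 strains and higher in 4, over a range of -2.04 in BALB/cJ to 0.33. The mitochondrial dismutase Sod2 rose by 0.19 (SE 0.024, adjusted p 7.2e-11) and Txnrd1 by 0.12 (SE 0.023, adjusted p 1.1e-05), each higher in 6 of 6 strains. Thus 2 members were higher and 1 lower, where 18.5 percent of all genes were higher and 22.5 percent lower. Within the GC bound, which leaves BALB/cJ out at day 2, Gpx1 differed by 0.03, Sod2 by 0.16 and Txnrd1 by 0.09, the latter 2 still past the threshold. Nqo1 fell there by 0.31 (adjusted p 0.00133). With the GC offset Sod2 differed by 0.04 (adjusted p 0.630). The Gpx1 call was lost with only the libraries of day 2 in the fit (-0.38, adjusted p 0.0912) and with the mouse number as a block (-0.31, adjusted p 0.0514), and that of Txnrd1 in limma (0.04, adjusted p 0.26).

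At day 10 edgeR called 0 members in all libraries, with 3 at an unadjusted p under 0.05. DESeq2 also called 0, with 3 at an unadjusted p under 0.05, and limma on the authors' log2 values called 0, with 1. Over all genes 0.412 percent were higher and 0.533 percent lower at that day. Gpx3 differed by -0.20 in all libraries (adjusted p 0.31) and by the same size within the bound (adjusted p 0.0181).

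At day 30 Gpx2 was the 1 member called, where 4.4 percent of all genes were higher and 5.53 percent lower. The 299 libraries gave 7 calls: Gpx1 (0.28), Gpx2 (0.46), Gpx4 (0.20), Sod1 (0.13), Sod2 (0.04) and Txnrd1 (0.05) were higher and Gpx3 (-0.15) was lower. In that fit 21.4 percent of all genes were higher and 18 percent lower, so the bound changed the calls over all genes as well. The fold changes themselves moved little, Gpx1 standing at 0.29 in all libraries (adjusted p 0.0634).

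At day 90 there were 5 members called. Gpx2 (0.61), Gpx1 (0.40, SE 0.11, adjusted p 0.0044) and Prdx4 (0.20, SE 0.056, adjusted p 0.00764), the peroxiredoxin of the endoplasmic reticulum, were higher on HFHS averaged over strains. By strain, Gpx1 was higher in 4 and lower in 2, from -0.06 to 1.71 in DBA/2J. Prdx4 was higher in 5 and lower in 1, from -0.08 to 0.69 in AKR/J. Nqo1, a reductase of quinones, was lower (-0.25, SE 0.068, adjusted p 0.0054), in 5 of 6 strains, and Sod2 lower by a small step (-0.06, SE 0.021, adjusted p 0.0329) in 6 of 6. Over all genes 9.78 percent were higher and 6.79 percent lower. Within the GC bound Gpx1 stood at 0.20 and Nqo1 at -0.26, both called, Prdx4 at 0.13 (adjusted p 0.0883), and Gpx3 at -0.15 (adjusted p 0.0409). The Sod2 call was lost without any 1 of 5 mice (DBA/2J RC mouse 120, C57Bl/6J RC mice 1RC133 or 1RC134, both among the 9 nearest another strain, BALB/cJ HFHS mice 46 or 47; -0.05 in each), in limma on the authors' table (-0.04), and Sod2 turned to 0.03 with the GC offset.

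**Figure D2:**
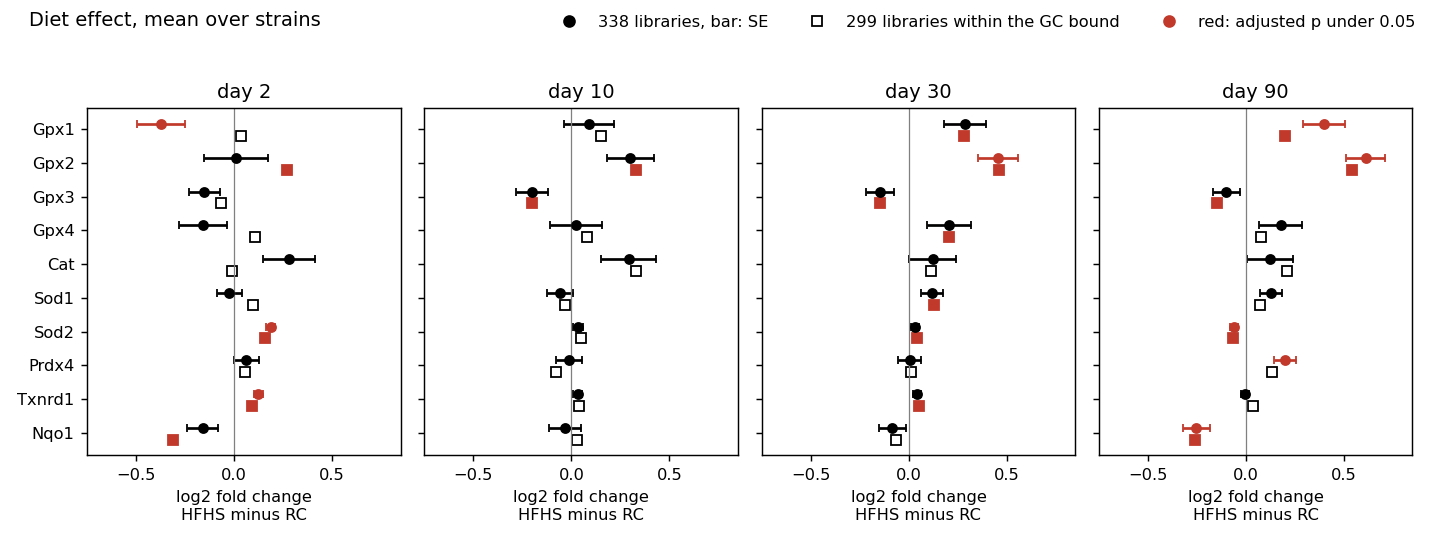
Diet effect on the 10 genes by day. The horizontal axis is the log2 fold change, HFHS minus RC, averaged over strains; circles are all 338 libraries with the SE as bar, squares the 299 within the GC bound, and red marks an adjusted p under 0.05. Gpx2 lies at 0.46 at day 30 and 0.61 at day 90, the farthest from 0 of the 10 at both days. Gpx1 moves from -0.37 to 0.03 at day 2 between the 2 fits, of which the second leaves out BALB/cJ at that day.

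The difference between the day 90 and the day 2 diet effect was tested directly. It was 0.60 for Gpx2 (SE 0.15, adjusted p 0.000615), 0.77 for Gpx1 (adjusted p 6.0e-05), -0.25 for Sod2 (adjusted p 1.9e-10) and -0.13 for Txnrd1 (adjusted p 0.000283). Thus 2 members were higher and 2 lower, where 26.5 percent of all genes were higher and 22.1 percent lower. Sod2 itself was higher on HFHS in 6 strains at day 2 and lower in 6 at day 90. Within the GC bound BALB/cJ drops out, since it has no HFHS library left at day 2. There Sod2 kept -0.22 (adjusted p 4.3e-08), while Gpx2 stood at 0.28 (adjusted p 0.0768), Gpx1 at 0.15 and Txnrd1 at -0.03 (adjusted p 0.573). With the GC offset the Sod2 difference was -0.00 (adjusted p 0.986) and that of Gpx2 0.45 (adjusted p 0.00373).

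In AKR/J no library lay beyond the GC bound, and at day 90 both groups held 8 mice. Besides Gpx2, Prdx4 rose and Gpx3 and Nqo1 fell, so 2 members were higher and 2 lower, where 6.58 percent of all genes were higher and 5.87 percent lower.
Prdx4 ran from 31.6 over 38.2 to 53.9 CPM on HFHS and from 26.6 over 27.9 to 31.9 CPM on RC. The groups overlapped at their edge only, and the log2 difference was 0.69 (SE 0.14, adjusted p 7.1e-05).
Gpx3, which is secreted, had 174, 235 and 424 CPM on HFHS as lowest, median and highest and 373, 442 and 511 CPM on RC. One HFHS mouse lay within the RC range, and the difference was -0.61 (SE 0.17, adjusted p 0.00666).
Nqo1 had 5.48, 8.99 and 16.9 CPM on HFHS against 15.5, 16.5 and 18.9 CPM on RC, with 1 HFHS mouse in the RC range (-0.67, SE 0.17, adjusted p 0.00201).
Differences of the other 6 did not pass: Gpx1 0.36, Sod1 0.26, Txnrd1 0.05, Gpx4 -0.01, Sod2 -0.06 and Cat -0.10. Of these, Gpx1 (adjusted p 0.00152) and Sod1 (adjusted p 0.0114) passed in the fit of the 299 libraries. Sod2 and Txnrd1 did not overlap in CPM (54.5 to 63.2 against 65.5 to 71.3 CPM and 146.7 to 170.7 against 172 to 177 CPM), yet overlapped after TMM scaling (62.5 to 69.1 against 64.2 to 74.8, and 167 to 191 against 167 to 181), since the TMM factors of the HFHS libraries had a median of 0.906 against 1.02.

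Cell type markers moved with diet in the same AKR/J mice. The beta cell sum was 304305 to 368801 CPM on HFHS and 248891 to 286945 on RC. The alpha cell sum was 5722 to 19845 CPM against 17748 to 25098, the delta and PP cell sum 2966 to 8873 against 6395 to 9636, and the acinar sum 497 to 6298 against 3602 to 24189. Macrophage markers ran from 94.0 to 517 CPM against 141.3 to 360.4, endothelial ones from 706 to 886 against 746 to 933, stellate ones from 151.2 to 943.1 against 310 to 759 and lymphocyte ones from 6.56 to 324 against 12.5 to 257. The enterocyte sum was 0.0691 to 1.28 CPM on HFHS and 0.217 to 354 on RC. Their part in the 4 member results was not tested.

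**Figure D3:**
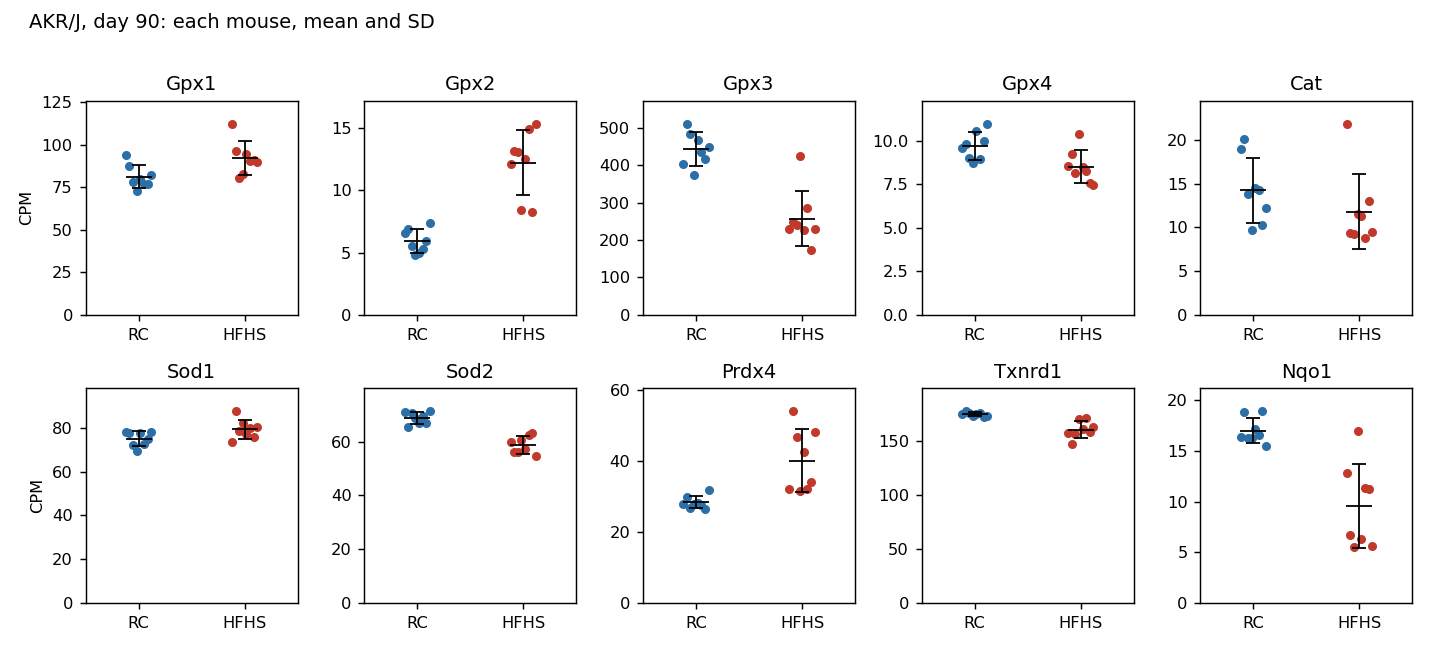
The 10 genes in AKR/J mice at day 90, in CPM (vertical axes, each starting at 0) on RC (blue) and HFHS (red). Points are mice, 8 per diet, and bars the mean and SD. Gpx2 and Prdx4 lie higher and Gpx3 and Nqo1 lower on HFHS, with 1 HFHS mouse at 424 CPM in Gpx3 and 1 at 16.9 CPM in Nqo1 inside the RC range.

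Members passed in 6 of the 24 comparisons of 1 strain at 1 day, with 27 of 240 results called, against 10.4 percent of the results of all genes in these comparisons. Apart from AKR/J at days 2 and 90, the comparisons held libraries beyond the GC bound.
In BALB/cJ at day 2, where every HFHS library lay beyond it, Gpx1 ran from 12.4 to 25.2 CPM on HFHS and from 54.7 to 66.1 CPM on RC. There 3 members were called higher and 4 lower, where 34.5 percent of all genes were higher and 32.1 percent lower. Gpx1 differed by -2.04, Gpx2 by -1.23, Gpx3 by -0.54 and Gpx4 by -1.30, and Cat, Sod2 and Prdx4 by 0.83, 0.43 and 0.45. With the GC offset these were -0.69, -0.75, 0.52, 0.52, 0.62, -0.25 and 0.46, so Gpx3, Gpx4 and Sod2 changed sign.
In DBA/2J at day 90, with 7 of 8 RC libraries beyond the bound, Gpx1 (1.71), Gpx2 (0.84), Gpx4 (0.97) and Sod1 (0.33) were called higher and Sod2 (-0.12) and Nqo1 (-0.78) lower, where 26.1 percent of all genes were higher and 29.3 percent lower. Gpx4 turned to -0.48 and Sod2 to 0.39 with the GC offset, and Gpx1 alone passed within the bound (0.74, adjusted p 0.00576). Nqo1 ran from 8.18 over 19.2 to 33.7 CPM on HFHS and from 26.1 over 44.9 to 50.9 CPM on RC, with overlap. The Sod1 call was lost without any 1 of 6 mice (0.28 to 0.31; HFHS mice 2HF130 and 2HF132 and RC mice 2RC117, 2RC120, 2RC123 and 2RC124), and the Sod2 call without any 1 of 6 (-0.11 to -0.09; 2HF132, 2HF135, 2RC118, 2RC120, 2RC121 and 2RC122).
In A/J at day 2, Sod2 (0.21) and Txnrd1 (0.33) were higher and Gpx1 (-1.003), Gpx3 (-0.56) and Nqo1 (-0.55) lower, where 20.6 percent of all genes were higher and 11.1 percent lower. Nqo1 and Sod2 passed within the bound (-1.04 and 0.30), as did Gpx2 (-0.63, adjusted p 0.0491), and Sod2 stood at -0.05 with the GC offset.
In DBA/2J at day 30, with 2 RC libraries beyond it, Gpx1 (0.96) and Gpx4 (0.68) were higher and Nqo1 (-0.56) lower, where 13.1 percent of all genes were higher and 12.7 percent lower. The 3 differences were called within the bound too (0.91, 0.67 and -0.46), and with the GC offset stood at 0.50, -0.23 and -0.36.

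Levels of Gpx2, Nqo1 and Gpx3 on chow differed between strains. Each strain was compared with the mean of the other 5 over the 4 days on RC, and a gene had to pass an adjusted p under 0.05 and also a log2 difference of 1 or more, up or down. The labels give no more than the strain, so strain and any shared housing or day of preparation cannot be told apart. The share of all genes past both was 3.12 percent for C57Bl/6J, 4.67 for DBA/2J, 2.82 for BALB/cJ, 3.11 for A/J, 3.55 for AKR/J and 2.95 for 129S2/SvPas. Among the members 3 results passed: Gpx2 in A/J, and Nqo1 in C57Bl/6J and in DBA/2J.

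Gpx2 on RC was 12.4 ± 2.30 CPM in C57Bl/6J (SD, n = 27), 10.3 ± 3.11 in DBA/2J (n = 27), 8.14 ± 2.05 in AKR/J (n = 27), 7.89 ± 3.83 in 129S2/SvPas (n = 32), 6.08 ± 1.72 in BALB/cJ (n = 28) and 3.09 ± 1.14 in A/J (n = 25). A/J mice ran from 1.25 to 5.78 CPM and C57Bl/6J mice from 7.19 to 15.96, with no overlap. A/J was lower than the other 5 by 1.40 on the log2 scale (difference -1.40, SE 0.13, adjusted p 2.0e-22). Among neighbours in this order, BALB/cJ lay above A/J by 0.94 (adjusted p 2.6e-09) and 129S2/SvPas above BALB/cJ by 0.33 (adjusted p 0.0272). The first 4 strains in the order did not differ from their neighbours past the threshold (0.29, 0.26 and 0.06, adjusted p 0.0578, 0.0836 and 0.723).

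Nqo1 had another order. It was 32.8 ± 9.11 CPM in DBA/2J (SD, n = 27), 19.9 ± 2.79 in AKR/J, 13.7 ± 4.50 in A/J, 11.8 ± 2.85 in 129S2/SvPas, 9.82 ± 2.05 in BALB/cJ and 7.64 ± 2.41 in C57Bl/6J. The lowest DBA/2J mouse, at 21.9 CPM, lay above every C57Bl/6J mouse (highest 17.8). The share of all genes that separate a pair of strains in this way was not counted, here or for Gpx2. DBA/2J differed from the other 5 by 1.33 (SE 0.065, adjusted p 9.1e-56) and C57Bl/6J by -1.11 (SE 0.078, adjusted p 2.2e-33). All 5 pairs of neighbours passed at adjusted p under 0.05, by 0.24 to 0.59. C57Bl/6J thus held the highest Gpx2 and the lowest Nqo1 mean of the 6 strains.

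Gpx3 was 1014 ± 318 CPM in 129S2/SvPas (SD, n = 32) against means of 475 to 654 CPM in the other 5, a difference of 0.87 (SE 0.065, adjusted p 2.4e-30), and DBA/2J was lower by 0.53 (difference -0.53, adjusted p 1.7e-10). Both missed the fold threshold. Without the 9 libraries nearest another strain the 129S2/SvPas difference was 1.01 and passed it. Within the GC bound the order of the strain means of Gpx2 was the same, from 12.7 CPM in C57Bl/6J to 2.98 CPM in A/J, and Nqo1 in DBA/2J was 27.8 ± 3.96 CPM (SD, n = 18).

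**Figure D4:**
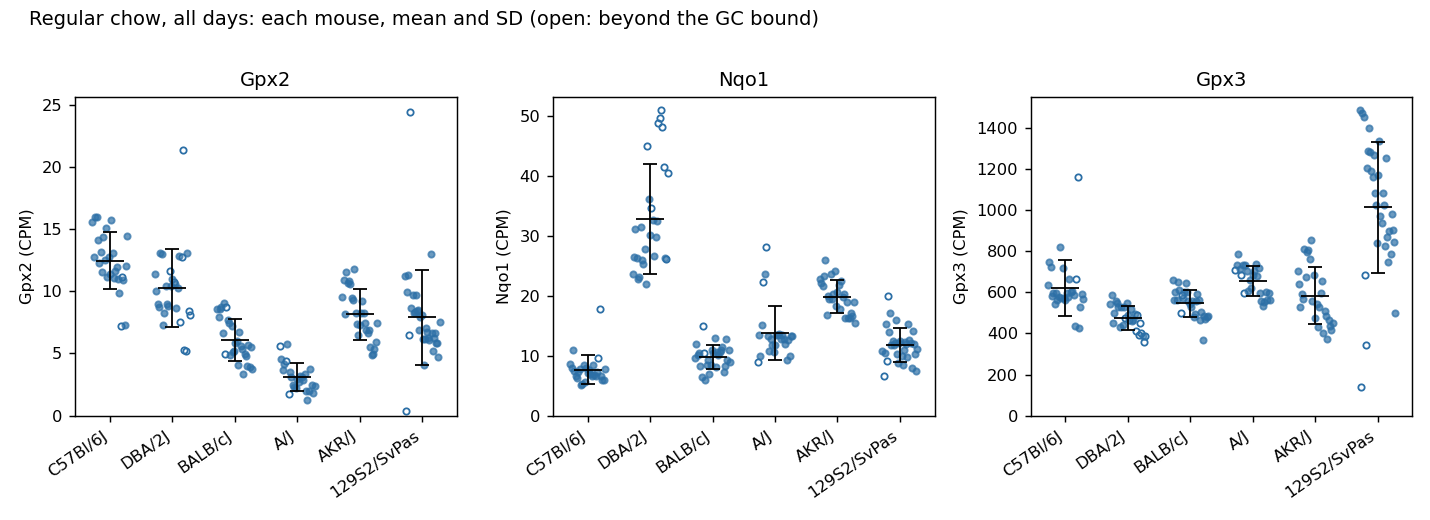
Gpx2, Nqo1 and Gpx3 in CPM (vertical axes) in mice of the 6 strains on RC at all days. Points are mice, open where the library lay beyond the GC bound, and bars the mean and SD. Gpx2 is lowest in A/J (3.09 CPM), Nqo1 highest in DBA/2J (32.8 CPM) and Gpx3 highest in 129S2/SvPas (1014 CPM).

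Gpx2 fell with time on chow. Its mean level was lower in 6 of 6 strains, going from day 2 to day 90 in C57Bl/6J (14.4 to 10.4 CPM), DBA/2J (10.9 to 10.2), BALB/cJ (8.25 to 4.49), A/J (4.45 to 2.37), AKR/J (10.2 to 5.94) and 129S2/SvPas (10.3 to 6.73), and the mean log2 difference was -0.66 (SE 0.11, adjusted p 9.6e-08; -0.51 within the GC bound). Gpx3 (-0.35) and Prdx4 (-0.17) fell and Sod2 (0.08) and Txnrd1 (0.07) rose, so 2 members were higher and 3 lower, where 9.23 percent of all genes were higher and 14 percent lower. The Prdx4 and Txnrd1 calls were lost without the A/J RC mouse numbered 1 of day 2 (-0.15 and 0.05). On HFHS, Gpx2 differed by -0.05 between the same days in all libraries (adjusted p 0.679). That value includes the 6 BALB/cJ HFHS libraries of day 2 beyond the GC bound, and the Gpx2 value within the bound is not given here. In the same HFHS comparison Gpx1 (0.60), Gpx4 (0.37) and Sod1 (0.14) were called higher and Gpx3 (-0.30), Cat (-0.28), Sod2 (-0.17) and Txnrd1 (-0.06) lower, where 30.8 percent of all genes were higher and 30.3 percent lower. Within the GC bound, which leaves BALB/cJ out of this comparison, only Gpx3 (-0.55, adjusted p 9.2e-19) and Sod2 (-0.10) of these passed. The Cat call was lost without any 1 of 5 mice of day 90 (-0.27 to -0.26; BALB/cJ HFHS mice 41 and 44, A/J HFHS mice 45, 47 and 48), and without the 48 libraries over 50 CPM of enterocyte genes Cat stood at 0.015. The Sod1 call was lost without 129S2/SvPas HFHS mouse 99 (0.11). These time comparisons and the diet comparisons share mice, so their values are not independent.

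The other genes of the pathway were taken from 5 lists. Their values are from all libraries unless the GC bound is named. How far they rest on libraries beyond it is therefore mostly not shown. Among the other glutathione peroxidases, Sod3 and the copper chaperone Ccs, 4 of 6 genes were tested, with a median diet difference of 0.10 at day 90 against 0.01 for all genes. Sod3, the extracellular dismutase, fell at day 2 (-0.47, adjusted p 0.00192), where 22.5 percent of all genes fell. With time on chow 3 of these 4 fell, where 14 percent of all genes fell: Gpx7 (-0.42), Sod3 (-0.39) and Gpx8 (-0.22).

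Of 13 other peroxiredoxin and thioredoxin genes, 1 rose and 1 fell for diet at day 90 (Txn1, thioredoxin, 0.17, and Sesn3, a sestrin, -0.26), neither within the GC bound, where 9.78 percent of all genes rose and 6.79 percent fell. In AKR/J at day 90, 4 of the 13 rose, where 6.58 percent of all genes rose, with a list median of 0.18 against -0.01 for all genes. These were Prdx6 (0.44, SE 0.081, adjusted p 1.1e-05), Txn1 (0.47), Prdx1 (0.41) and sulfiredoxin, Srxn1 (0.29), which repairs overoxidized peroxiredoxins. At day 2, averaged over strains, Prdx1 (0.21) and the mitochondrial Prdx3 (0.14) were among 4 that rose (18.5 percent of all genes did), and Prdx5 (-0.39; 0.05 within the bound) fell.

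Of 11 glutathione genes 1 passed at day 90, Ggt7 (0.27, a gamma-glutamyltransferase family gene), and 3 rose at day 30, where 4.4 percent of all genes rose, the glutaredoxin Glrx5 (0.21), Ggt7 (0.25) and glutathione synthetase, Gss (0.16). At day 2, 4 rose and 2 fell, against 18.5 and 22.5 percent of all genes, with Gclc, the catalytic subunit of glutamate-cysteine ligase, at 0.29 (SE 0.048, adjusted p 9.3e-07) and the cystine transporter Slc7a11 at -0.53. In AKR/J at day 90 the glutaredoxins Glrx (0.44) and Glrx2 (0.35) rose and Ggt1 fell (-2.40, SE 0.86, adjusted p 0.0457).

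Of 19 NRF2 regulators and targets, 3 rose and 2 fell at day 90 (list median 0.01, all genes 0.01), against 9.78 and 6.79 percent of all genes. Nfe2l2 itself fell by 0.15 (-0.15, adjusted p 0.013), and Keap1, its inhibitor (0.21), and Sqstm1, an autophagy receptor that binds KEAP1 (0.15), rose. The glutathione transferase Gstm2 fell at day 10 (-0.35, adjusted p 0.00181), day 30 (-0.28) and day 90 (-0.43, SE 0.061, adjusted p 1.6e-08). With Nqo1 it was also lower in AKR/J at day 90 (-0.64), as was Gstm1 (-0.58). With time on chow Gstm2 (0.30), Gstm1 (0.27) and heme oxygenase, Hmox1 (0.30), were among 5 that rose, where 9.23 percent of all genes rose.

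Of 14 genes for selenoprotein synthesis and other selenoproteins, the class to which Gpx1 to Gpx4 and Txnrd1 belong, 1 passed at day 90, Selm (0.46, adjusted p 0.00999), where 9.78 percent of all genes rose. In AKR/J at day 90 Sep15 (0.46) and Sepp1 (0.40), the selenium carrier, rose, where 6.58 percent of all genes rose. Sephs1 fell at day 30 (-0.11) and with time on chow (-0.12).

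Genes with a pattern most like that of Gpx2 were ranked by Pearson's r of log2 CPM, as a description over points that share libraries and depth. Over the 48 group means the highest ranks included Nt5m (0.84), Dffa (0.83), Ly6e (0.80) and Isca1 (0.78). Over 47 group means within the GC bound, they included Pex5l (0.81), Nt5m (0.80), Dffa (0.79) and Mcart1 (0.79), so Nt5m and Dffa were in both. With group means removed, Ccdc56, Banf1, Sec13, Psmc4 and Mrpl10 led over 338 libraries (r of 0.85 to 0.86), and Tmed3 (0.68), Dad1 (0.65), Alg5, Spcs1 and Cox7b (0.64 each) over the 299 within the bound, with no gene in common.

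High catalase levels went with high levels of intestinal genes. Its median was 12.7 CPM, and the 4 highest libraries were the 4 with the highest sum of 10 enterocyte genes. These were an A/J HFHS mouse at day 2 with 138.3 CPM of Cat (group median 16.3, enterocyte sum 7148 CPM) and 129S2/SvPas HFHS mice at day 10 (146.4, group median 15.7, sum 6614), day 30 (81.1, group median 11.9, sum 4673) and day 2 (75.2, group median 12.8, sum 3728). Among libraries with a sum of at most 50 CPM the highest Cat level was 39.9 CPM. With group means removed, log2 Cat and the sum had r of 0.58 over 338 libraries and 0.51 over the 299 within the GC bound, against 0.27 for Nqo1, 0.20 for Txnrd1 and 0.03 for Gpx2, as descriptions. Of the 8 libraries with the highest sums, 6 lay above their group median of Gpx2.
Without the 48 libraries above 50 CPM the Gpx2 difference at day 90 was 0.68 (adjusted p 4.9e-07), and that of Cat 0.14 (adjusted p 0.155).

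**Figure D5:**
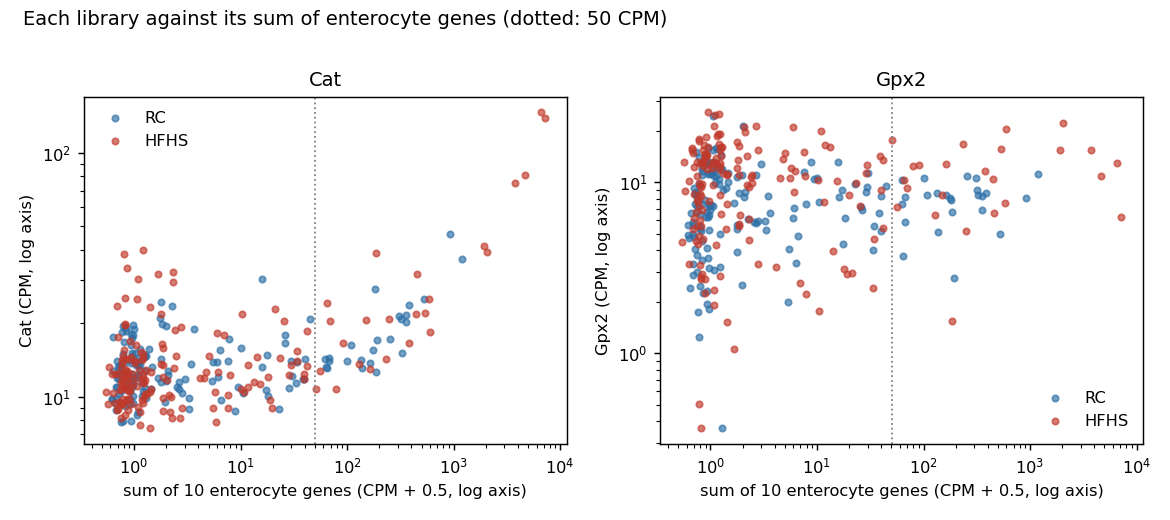
Cat and Gpx2 (vertical axes, CPM, log scale) against the sum of 10 enterocyte genes (horizontal axis, CPM plus 0.5, log scale). Each point is 1 of 338 libraries, red on HFHS and blue on RC, and the dotted line marks 50 CPM. Cat reaches 146.4 CPM at the right end, where the same 4 libraries have 6.30, 12.9, 10.9 and 15.5 CPM of Gpx2 against group medians of 3.02, 10.4, 11.6 and 11.5 CPM.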

How the data were processed

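Per the labels, RNA of at least 150 islets per mouse gave a library from 200 ng of total RNA with a TrueSeq v2 kit, which keeps no strand, so antisense reads cannot be told apart. Build mm9 and, as tools, HTSeq 0.5.3p3, TopHat 1.3.3, edgeR and SAMtools 0.1.16 are named per the submitters' processing notes, with no role given. The deposited raw table holds whole read counts of 21382 genes, and the authors' normalized table log2 values of 14826 genes, each log2 of the count times a library factor (0.428 to 2.94) plus 1. Raw counts were used, and the log2 table as an alternative.

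Groups are strain, diet and day as labelled. After filterByExpr and TMM scaling, edgeR 4.0.16 (R 4.3.3) gave robust quasi-likelihood fits (prior count 2), each group having its own mean. SE is the log2 fold change over the root of F. Depth was 9526926 to 50751894 reads per library. Nothing states more than 1 library per mouse, so spread between mice includes library preparation. Correlations with the enterocyte sum used log2 CPM with a pseudocount of 0.5, and likeness to Gpx2 used TMM-scaled log2 CPM of genes with a mean CPM of at least 5. Scripts were tested on simulated counts.

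Members and lists were chosen with earlier results of these data known. All 10 members are named in each comparison, and of each list up to 4 genes past the threshold with the smallest p. Alternatives were DESeq2 1.42.0 and its size factors, limma 3.58.1 on the authors' table, no filter on low counts, the libraries compared alone, the GC offset, the GC bound, the 9 libraries, mouse 6RC89 and single mice left out, and the mouse number as a block. The enterocyte list was added after the data were seen. Same-numbered HFHS and RC mice did not deviate together at the median, so the numbers were not used as pairs. The block could act only in strains whose HFHS and RC mice share numbers within a day, and it joined mice of different strains. Of the genes ranked by likeness to Gpx2, some are not reported here.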

Additional observations from a re-analysis of the deposited data

Results flagged for a closer look

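Of 36 gene and group pairs checked for 1 library far from the others, 6 were marked, and chance marks about 1 in 20. In AKR/J on HFHS at day 90, 1 mouse (5HF44) had 424 CPM of Gpx3 and another (5HF41) 21.9 CPM of Cat, each the highest of 8. Cat was the gene of the other 4 marks, at 146.4 CPM in 129S2/SvPas HFHS mouse 6HF17 (day 10), 138.3 CPM in A/J HFHS mouse 4HF3 (day 2), 81.1 CPM in 129S2/SvPas HFHS mouse 6HF30 (day 30) and 75.2 CPM in 129S2/SvPas HFHS mouse 6HF1 (day 2). These 4 libraries also had the 4 highest sums of enterocyte genes, 3728 to 7148 CPM against a median of 0.770 over all libraries, and the part of those genes was not tested.

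The diet effect differed between strains at day 90, by the interaction in edgeR, for Gpx1 (adjusted p 0.000183), Gpx3 (adjusted p 0.0428), Prdx4 (adjusted p 0.00696) and Nqo1 (adjusted p 0.000471), a test that 50.3 percent of all genes passed. The Gpx3 call was lost with the mouse number as a block (0.0632), with no filter on low counts (0.0561) and without mouse 6RC89 (0.0578). It was also lost in limma (0.164) and without the enterocyte-rich libraries (0.0906). The diet effect differed between days 90 and 2 in all libraries, on the log2 scale, for Gpx1 (0.77), Gpx2 (0.60), Sod2 (-0.25) and Txnrd1 (-0.13). The calls of Gpx1, Gpx2 and Txnrd1 were lost within the GC bound, where BALB/cJ is left out. That of Sod2 was lost with the GC offset.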

How the results depend on the processing

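Of 2020 log2 values of the members under alternatives other than single mice left out, 1807 kept their sign and call, 14 changed sign with a call in either fit, and 5.40 percent changed sign with no call in either. With single mice left out, 74 of 5680 changed sign, each with no call. The cause was not tested. The count of members called changed at day 2 from 3 to 5 without the libraries nearest another strain. It changed at day 10 from 0 to 1 with the GC offset and 2 within the GC bound, and at day 30 from 1 to 4, 7, 6 and 3 with the GC offset, within the bound, with only the libraries compared and without the libraries nearest another strain. For time on chow it went from 5 to 3 in limma, for the day 90 minus day 2 diet effect from 4 to 1 within the bound, and for time on HFHS from 7 to 2 with the offset and within the bound. The share of all genes called changed too. At day 30 it went from 4.4 percent higher and 5.53 percent lower to 21.4 and 18 percent within the bound. The shares in the other fits are not given here, so these shifts cannot be read as particular to the members. In the fits within the bound, BALB/cJ is left out of each comparison that uses HFHS at day 2. Among values called in 1 fit or both, signs turned within the bound for Gpx1 at day 2 (0.035) and for Gpx4 (-0.013) and Txnrd1 (0.014, and 0.011 in limma) with time on HFHS. With the GC offset they turned for Gpx4 at day 2 (0.20), Sod2 at day 90 (0.034), Gpx4 (-0.48) and Sod2 (0.39) in DBA/2J at day 90, Gpx4 between day 90 and day 2 (-0.28), and Gpx4 (-0.076) and Sod2 (0.018) with time on HFHS. Sod2 in DBA/2J at day 90 was 0.050 in limma, and without the enterocyte-rich libraries, an alternative added after the data were seen, Cat was 0.28 between day 90 and day 2 and 0.015 with time on HFHS.

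With single mice left out, Gpx2 stayed between 0.58 and 0.65 at day 90, 0.99 and 1.14 in AKR/J at day 2 (RC mice only), and 1.15 and 1.29 in AKR/J at day 90. The members called were 3 at day 2, 0 at day 10, 4 to 6 at day 90, 4 in AKR/J at day 90, 3 to 6 for the interaction, 4 to 5 for day 90 minus day 2, 3 to 5 for time on chow and 6 to 8 for time on HFHS. Over the same-numbered HFHS and RC pairs the correlation of deviations had a median of -0.00707 (34 over 0.1), so the mice share a number only. With the mouse number as a replicate block, Gpx2 at day 90 stood at 0.57 with 5 members called, and 2 members were called at day 2. In C57Bl/6J and DBA/2J, HFHS and RC mice of a day share no numbers, and some numbers recur at another day. The block therefore does not check these strains, and their Gpx2 differences at day 90 stayed at 0.59 and 0.84. In the other strains the same numbers recur between strains. With 36 block columns, unrelated mice of different strains shared a block. No such fit was made for time or strain. Single mice were left out in the groups of 4 or 5 mice, all on RC, and at day 90. No HFHS mouse of an earlier day was therefore left out. In these fits the edgeR dispersions were those of the fit of all libraries. A member was called there at a p no higher than the largest p passing in that fit, with no new adjustment. The share of all genes called with single mice left out was not counted. The lowest counts, 1 read for Gpx4 and 8 for Gpx2, limit what single libraries show.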
